A study of Mus musculus with 6 samples.

Results

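The integrated stress response genes and the cytosolic tRNA synthetase genes were examined in mouse leukaemia cells labelled as lacking or retaining Slc6a6, the gene of the taurine transporter. The set holds 36 genes fixed by name: 12 stress effectors around the transcription factor ATF4, the 4 kinases of the initiation factor eIF2, and the 20 cytosolic tRNA synthetase genes, out of 53819 genes in the deposited table. All 36 had a row (methionyl-tRNA synthetase under its newer symbol Mars1), and 34 passed the filter on low counts that left 15232 genes for testing. RNA was sequenced from leukaemia cells sorted out of spleens of transplanted mice. The group called KO (genotype SLC6A6 KO) and the group called WT (genotype SLC6A6 WT) had 3 libraries each, and the leukaemia of both groups was driven by BCR-ABL together with NUP98-HOXA9, fusion genes that in mice give a disease like chronic myeloid leukaemia in blast crisis. The series title speaks of a knock-down. The allele, the mouse strain, the age and sex of the animals, the sort marker and the number of primary leukaemias behind the libraries were not given in the sources used here. Each p-value therefore reflects variation among these 6 libraries, and that variation may be technical.

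The integrated stress response works by slowing translation. The kinases HRI (Eif2ak1), PKR (Eif2ak2), PERK (Eif2ak3) and GCN2 (Eif2ak4) answer haem shortage and other stresses, double-stranded RNA, unfolded protein in the endoplasmic reticulum and uncharged tRNA, and each phosphorylates the alpha subunit of eIF2. Phosphorylated eIF2 blocks its exchange factor eIF2B, general translation falls, and the mRNA of ATF4 is translated better. ATF4 then induces genes of amino acid uptake and synthesis and several tRNA synthetases, the enzymes that charge each tRNA with its amino acid. In red cell precursors HRI matches globin synthesis to the supply of haem. Most of this regulation acts on proteins, so mRNA counts show the output of the pathway and not the activity of the kinases.

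Library totals ran from 42829294 to 49537098 counts, and 20681 to 21694 genes had a count in a library. Slc6a6 itself was measured at 125, 132 and 133 CPM (counts per 1000000 counts of a library) in the KO libraries and at 151, 145 and 145 CPM in the WT libraries, a log2 fold change of −0.18 ± 0.07 (SE) with an edgeR adjusted p of 0.196. The counts do not show which part of the gene was altered, so this level does not check the genotype. Hoxa9, which contributes to the second fusion, was present in every library, as was the leukocyte gene Ptprc (50.1 to 148 CPM). Hoxa9 was at 101, 97.3 and 108 CPM in KO and 140, 132 and 129 CPM in WT (log2 fold change −0.39 ± 0.08, SE, edgeR adjusted p = 0.0502). The surface marker gene Kit was higher in KO (75.9, 74.8 and 44.6 against 25.6, 9.90 and 18.1 CPM, edgeR adjusted p = 0.0450). Cd34 was lower (0.878, 2.42 and 1.53 against 16.9, 3.14 and 5.08 CPM, edgeR adjusted p = 0.114). Uty, Kdm5d, Ddx3y and Eif2s3y lie on the Y chromosome. They summed to between 10274 and 11236 counts in the KO libraries and to 0, 0 and 1 in WT1, WT2 and WT3. Genotype label and Y-linked expression thus split the libraries in the same way and cannot be told apart. This limit holds for every difference between KO and WT given here, whether or not the gene is sex-linked. Summed levels of 12 erythroid markers were 24425, 7935 and 27644 CPM in the KO libraries and 2552, 10961 and 6088 CPM in the WT libraries. Where 3 values are given for a group, they stand in the order of replicates 1, 2 and 3. In bulk RNA, fewer cells of a type and less RNA per cell cannot be told apart.

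Promoter sequences are shown first, because the element through which ATF4 and its C/EBP partners act on these genes can be read in them. RefSeq promoter windows (build GRCm38.p6, 250 bases before to 50 after a start) were found for 27 of the 36 genes. The motif TGATGNAA, the core of the C/EBP-ATF response element, was searched on both strands, with no other motif searched. It occurred in 10 of these 27 genes (37.0%), against 3.97% of all 32851 promoter windows and 4.51% of all 27025 genes in the table. The members were fixed by name and include known ATF4 targets, so this contrast is not a test. Genes with a match included Asns, Chac1, Trib3, Nupr1, Vldlr, Gars, Iars, Tars and Yars. The windows below have 28 bases each, read on the strand on which the match runs TGATGNAA, with the match in capitals. They are those of 6 members, chosen after their values were seen, and of Pck2 and Eif2s3x, genes outside the 36 that hold a match and passed the test.
Asns, chr6:7693215-7693242, minus strand: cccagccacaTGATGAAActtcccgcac
Chac1, chr2:119351039-119351066, minus strand: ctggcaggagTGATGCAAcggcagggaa
Trib3, chr2:152344029-152344056, plus strand: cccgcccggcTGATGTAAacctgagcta
Gars, chr6:55037961-55037988, minus strand: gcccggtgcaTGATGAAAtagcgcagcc
Iars, chr13:49682127-49682154, minus strand: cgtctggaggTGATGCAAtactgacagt
Tars, chr15:11399656-11399683, plus strand: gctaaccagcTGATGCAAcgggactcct
Pck2, chr14:55540153-55540180, minus strand: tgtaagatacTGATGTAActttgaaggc
Eif2s3x, chrX:94212730-94212757, plus strand: ggcatagaccTGATGAAAatgatggcga

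The match began 30 bases before the start of Gars, 23 before that of Asns and 15 before that of Tars. In Iars and Trib3 it began 7 and 14 bases after the start. The 250 bases before the start of Gars, the 1 member that passed the test, and of Pck2 are given whole on the gene's strand, which is the plus strand for both, with the match in capitals (there in the reverse orientation).
Gars, chr6:55037751-55038000: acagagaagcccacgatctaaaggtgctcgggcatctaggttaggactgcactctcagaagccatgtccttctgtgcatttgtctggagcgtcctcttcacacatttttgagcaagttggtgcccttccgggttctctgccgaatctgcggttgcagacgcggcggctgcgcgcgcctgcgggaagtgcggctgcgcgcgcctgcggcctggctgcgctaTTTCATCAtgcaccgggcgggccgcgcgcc
Pck2, chr14:55540016-55540265: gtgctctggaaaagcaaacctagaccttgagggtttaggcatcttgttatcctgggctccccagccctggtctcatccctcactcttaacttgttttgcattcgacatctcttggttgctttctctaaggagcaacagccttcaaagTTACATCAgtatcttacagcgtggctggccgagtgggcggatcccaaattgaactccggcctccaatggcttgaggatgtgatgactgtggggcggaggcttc

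These matches are a description of the sequence and not of binding. The genes shown did not share 1 direction: Gars and Eif2s3x fell, Pck2 rose, Asns, Chac1, Trib3 and Tars had lower means in KO, and Iars had a higher one.

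Of the 34 members tested, 1 fell in the libraries labelled KO, Gars, and 0 rose under edgeR's quasi-likelihood test at a Benjamini-Hochberg adjusted p below 0.05. That is 2.94% of members lower, against 1.92% of all tested genes lower and 1.64% higher, and the members' share is close to this background. At an unadjusted p below 0.05, 8 members were lower and 3 higher (23.5% and 8.82% of members), where all tested genes gave 10.4% and 11.6%. DESeq2's Wald test called 7 members lower (20.6%, against 6.04% of all genes) and 1 higher (against 7.06%), and limma-voom called 1 lower and 0 higher. The median log2 fold change was −0.06 over the 34 members and 0.01 over all genes tested.

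At the head of the pathway, the 4 eIF2 kinase genes were all expressed. Eif2ak1 (HRI) was measured at 337, 181 and 344 CPM in the KO libraries and at 146, 181 and 163 CPM in the WT libraries. KO1 and KO3 lay far above all WT libraries, while KO2 lay just below WT2. The log2 fold change was 0.81 ± 0.24 (SE) and did not pass the test (edgeR adjusted p = 0.113), with 0.00853 in DESeq2's Wald test and an edgeR adjusted p of 0.0242 without KO2. The order of the 6 libraries by Eif2ak1 was the same as their order by the summed erythroid markers, from WT1 through WT3, KO2, WT2 and KO1 to KO3. With the erythroid marker level as a covariate the log2 fold change was 0.23 (edgeR adjusted p = 0.592).

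Eif2ak2 (PKR), an interferon-induced gene, was measured at 75.6, 45.2 and 47.7 CPM in KO and at 51.7, 52.1 and 47.1 CPM in WT. Only KO1 stood apart, and 10 interferon-induced genes summed to 1942 CPM in KO1 against 387 and 653 CPM in KO2 and KO3 and 494 to 907 CPM in WT. Their part in the Eif2ak2 level was not tested. Eif2ak3 (PERK) was at 21.3, 30.3 and 31.7 CPM in KO and 29.1, 19.1 and 29.4 CPM in WT. Eif2ak4 (GCN2), the sensor of uncharged tRNA, was at 48.6, 51.8 and 49.2 CPM in KO and 54.6, 32.5 and 53.1 CPM in WT. For these 3 kinases the groups overlapped, the log2 fold changes lay between 0.09 and 0.16 with SEs between 0.20 and 0.23, and the edgeR adjusted p-values ran from 0.702 to 0.844. Scaled by exon length (GENCODE M21), Eif2ak1 was the most abundant of the 4 kinases in WT, at 28.8 CPM per kb, followed by Eif2ak2 at 9.84, Eif2ak4 at 6.27 and Eif2ak3 at 4.29 CPM per kb.

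The substrate of these kinases, eIF2, and its exchange factor eIF2B included 2 genes past the test. The gamma subunit of eIF2 has a pair of genes in the mouse, Eif2s3x on the X and Eif2s3y on the Y chromosome. Eif2s3x fell in KO, from 33.7, 39.8 and 36.9 CPM in the WT libraries to 21.7, 22.3 and 21.5 CPM in the KO libraries (log2 fold change −0.75 ± 0.11, SE, edgeR adjusted p = 0.0249). Eif2s3y was at 104, 88.3 and 85.6 CPM in KO and at 0 in all WT libraries, at least 4414-fold higher than 3 counts over the WT group allow. The groups did not overlap for either gene. Y-linked genes were counted almost only in KO, so genotype label and sex-linked expression cannot be told apart for either gene or for their sum.

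Together the pair gave 125, 111 and 107 CPM in KO and 33.7, 39.8 and 36.9 CPM in WT, 3.11 times as much in KO by the ratio of means. The Y copy made up 79.8% to 82.6% of the sum in KO. The exact two-sided permutation p of this sum was 0.10, the smallest that 3 against 3 libraries allow. The 2 genes are close paralogues, so reads could be split between them, and the treatment of shared reads was not given in the sources used here. Eif2s3x lost its call (edgeR adjusted p 0.0671 to 0.116) on leaving out KO1, KO3, WT2 or WT3, and with the erythroid covariate (0.0611), while its log2 fold change stayed between −0.83 and −0.69 on leaving out a library.

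The other subunits had lower means in KO, unlike the summed gamma pair. Of the 9 genes of eIF2 and eIF2B, 1 rose (Eif2s3y), 1 fell (Eif2s3x) and 7 did not pass edgeR's test. DESeq2's Wald test called 4 lower (44.4%, against 6.04% of all genes) and 1 higher, limma-voom called 1 lower and 1 higher, and 5 were lower at an unadjusted p below 0.05 (55.6%, against 10.4%). In 5 all KO libraries lay below all WT libraries: Eif2s2, Eif2s3x, Eif2b1, Eif2b4 and Eif2b5. The background of such non-overlap is 14.4% of tested genes lower and 13.6% higher. Eif2b1, the alpha subunit of eIF2B, was at 134, 132 and 137 CPM in KO against 166, 201 and 171 CPM in WT (log2 fold change −0.41 ± 0.09, SE, edgeR adjusted p = 0.0607). Eif2b5, the catalytic epsilon subunit, was at 208, 203 and 195 CPM against 237, 256 and 231 CPM (−0.26 ± 0.07, edgeR adjusted p = 0.102). Eif2s1, the alpha subunit that the kinases phosphorylate, was at 395, 380 and 407 CPM in KO and 403, 478 and 445 CPM in WT, with overlapping groups.

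**Figure D1:**
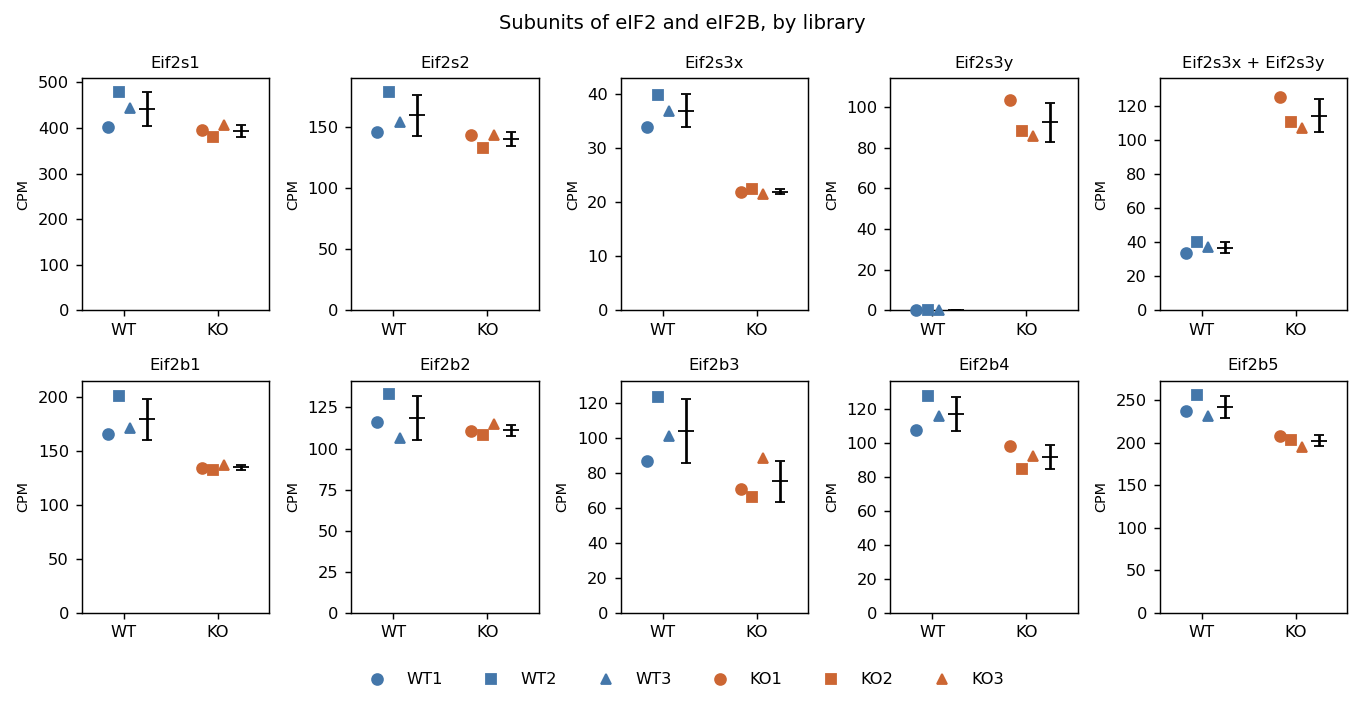
CPM of each eIF2 and eIF2B subunit gene by library (WT blue, KO orange, 1 symbol per replicate number), with the mean and SD of each group in black, on linear axes from 0. Eif2s3y is at 0 in WT and at 85.6 to 104 CPM in KO, while Eif2b1, Eif2b4 and Eif2b5 are lower in every KO library than in every WT library.

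Among the effectors, none of the 3 transcription factor genes passed the test (an unadjusted p below 0.05 in 0, and 0 calls by DESeq2 or limma-voom). Atf4 was measured at 171, 146 and 199 CPM in the KO libraries and at 140, 192 and 152 CPM in the WT libraries, a log2 fold change of 0.09 ± 0.15 (SE, edgeR adjusted p = 0.784). Ddit3, which encodes the pro-apoptotic factor CHOP, was at 17.8, 9.75 and 16.7 CPM against 11.8, 19.2 and 13.6 CPM (−0.02 ± 0.29, edgeR adjusted p = 0.982). For both genes the groups overlapped throughout, with KO2 lowest among KO and WT2 highest among WT. Atf5, a relative of ATF4, was low, at 0.473, 0.827 and 0.606 CPM in KO and 0.178, 0.653 and 0.862 CPM in WT.

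The products of Ppp1r15a (GADD34) and Ppp1r15b (CReP) guide a phosphatase to eIF2 and so end the response. Ppp1r15a was at 253, 90.4 and 237 CPM in KO and at 52.7, 116 and 74.7 CPM in WT, a log2 fold change of 1.26 ± 0.43 (SE) that did not pass the test (edgeR adjusted p = 0.152). Ppp1r15b, the constitutive form, was at 282, 179 and 293 CPM in KO and at 186, 195 and 177 CPM in WT (0.44 ± 0.18, edgeR adjusted p = 0.218, and 0.0290 without KO2, where it passed). As for Eif2ak1, KO1 and KO3 were above every WT library and KO2 lay among them.

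For these 3 genes the libraries that were high were those with the most erythroid marker RNA. Ppp1r15a followed the erythroid order in the 4 lowest libraries (WT1, WT3, KO2, WT2), with KO1 and KO3 highest. Ppp1r15b did not follow it there, since its 4 lowest libraries ran from WT3 through KO2 and WT1 to WT2. With the erythroid covariate the log2 fold changes were 0.12 for Ppp1r15a and 0.08 for Ppp1r15b, against 1.26 and 0.44 without it. The erythroid sum itself had a higher mean in KO (20001 CPM, against 6534 CPM in WT), with overlapping groups. This covariate therefore cannot separate erythroid RNA from genotype, and the part of erythroid RNA in these levels was not tested.

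**Figure D2:**
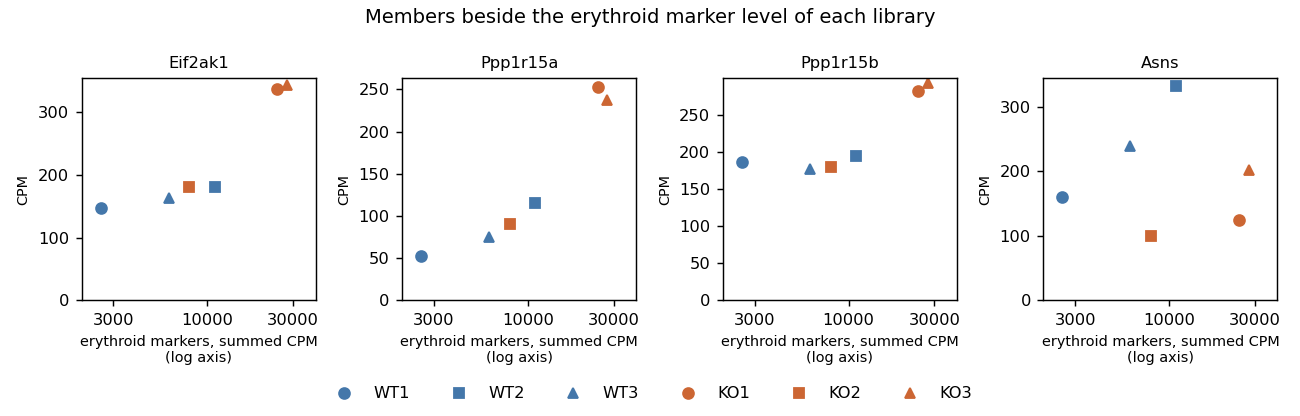
CPM of Eif2ak1, Ppp1r15a, Ppp1r15b and Asns (linear axes from 0) against the summed CPM of 12 erythroid markers (log axis), 1 point per library. For the first 3 genes KO1 and KO3 sit at the upper right and KO2 sits with the WT libraries. Asns does not follow the erythroid order over the 6 libraries. Within each group, though, Asns rises with the erythroid markers (KO2, KO1, KO3 and WT1, WT3, WT2).

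No ATF4 target among the effectors passed the test. Asns, which makes asparagine and is a classic ATF4 target, was at 124, 99.5 and 203 CPM in KO and at 161, 332 and 239 CPM in WT. The mean was 142 ± 53.9 CPM in KO and 244 ± 85.8 CPM in WT (SD, n = 3), with KO3 above WT1, so the groups overlapped (log2 fold change −0.78 ± 0.33, SE, edgeR adjusted p = 0.227). With the erythroid covariate the value was −1.51 (edgeR adjusted p = 0.0425), the only alternative in which Asns passed.

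Chac1, which degrades glutathione, was low in all libraries, at 1.64, 0.501 and 1.16 CPM in KO against 2.95, 1.66 and 2.52 CPM in WT. It was the 1 effector whose groups did not overlap, narrowly, since KO1 with 73 counts lay beside WT2 with 79 (log2 fold change −1.11 ± 0.51, SE, edgeR adjusted p = 0.258). Trib3, a pseudokinase that feeds back on ATF4 and CHOP, was at 7.72, 0.980 and 3.39 CPM in KO and 8.12, 11.0 and 4.75 CPM in WT (−0.98 ± 0.69, edgeR adjusted p = 0.463). Nupr1, a stress-induced chromatin protein, ran from 90.4 to 137 CPM in KO and from 111 to 139 CPM in WT. Cth, the last enzyme of cysteine synthesis from methionine, ran from 2.48 to 7.44 CPM in KO and from 4.34 to 5.12 CPM in WT, and Nupr1 and Cth thus overlapped.

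The remaining effectors, Stc2 and Vldlr, did not pass the filter on low counts. Stc2, a secreted glycoprotein gene, had 3, 0 and 10 counts in KO and 37, 8 and 9 in WT. Vldlr, a lipoprotein receptor gene, had 7 counts in KO2 and 23 in WT2 and none in the other libraries. Of the 10 effectors tested, 0 passed edgeR's test, and DESeq2 and limma-voom called 0. At an unadjusted p below 0.05, 2 were higher and 0 lower, where all tested genes gave 11.6% and 10.4%. The median log2 fold change of these 10 was −0.01.

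**Figure D3:**
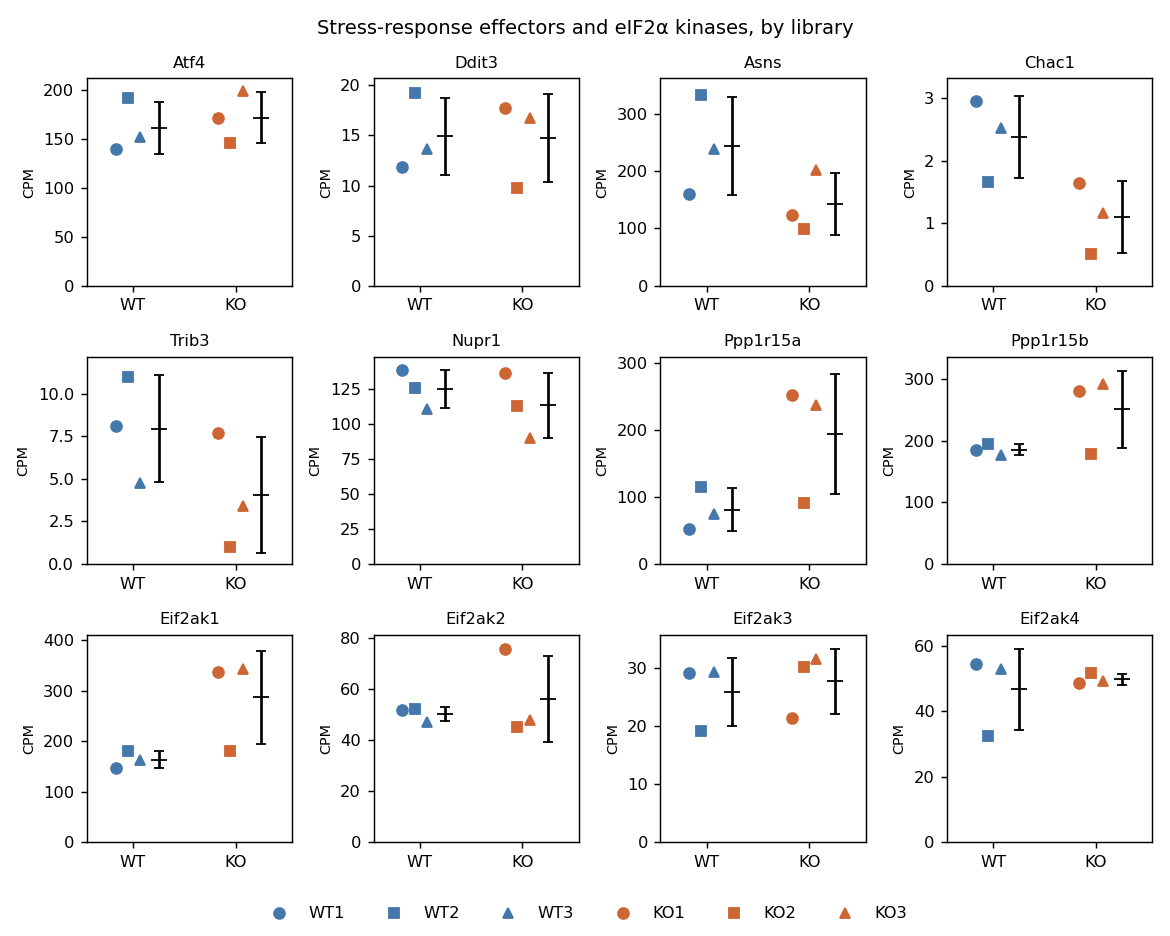
CPM of 8 effector genes and the 4 eIF2 kinase genes by library (WT blue, KO orange, 1 symbol per replicate number), with the mean and SD of each group in black, on linear axes from 0. KO1 and KO3 stand above WT for Ppp1r15a, Ppp1r15b and Eif2ak1, and only Chac1 has all KO libraries below all WT libraries.

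The tRNA synthetase genes varied little within groups, with a median coefficient of variation of 6.08% within KO and 5.09% within WT. Gars, which charges tRNA with glycine, fell. It was at 371, 365 and 365 CPM in the KO libraries and at 468, 480 and 481 CPM in the WT libraries. The spread within each group was small beside the gap between them (367 ± 3.34 against 476 ± 7.08 CPM, SD, n = 3), and Gars was 23.0% lower in KO (log2 fold change −0.38 ± 0.06, SE, edgeR adjusted p = 0.0275). The size was stable on leaving out a library (−0.41 to −0.37), but the call held only without WT1 (edgeR adjusted p = 0.0456) and was lost without KO1, KO2, KO3, WT2 or WT3 (0.0519 to 0.136), and with the erythroid covariate (0.0709).

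The synthetases next to Gars in rank by p did not pass. Rars, for arginine, was at 169, 174 and 156 CPM in KO against 202, 217 and 213 CPM in WT (log2 fold change −0.34 ± 0.08, SE, edgeR adjusted p = 0.0595). Qars, for glutamine, was at 101, 110 and 99.0 CPM against 124, 137 and 132 CPM (−0.35 ± 0.08, edgeR adjusted p = 0.0675). Tars, for threonine, was at 240, 222 and 232 CPM against 276, 289 and 278 CPM (−0.28 ± 0.07, edgeR adjusted p = 0.0712). In these 3 genes every KO library lay below every WT library, with a gap wider than the range within KO.

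Over the 20 synthetases, 15 log2 fold changes were negative and 5 positive, with a median of −0.14 and a range from −0.38 to 0.24. All KO libraries lay below all WT libraries in 9 genes (45.0%): Dars, Eprs, Gars, Kars, Lars, Qars, Rars, Tars and Wars. They lay above in 1, Iars, at 354, 353 and 346 CPM in KO against 346, 338 and 325 CPM in WT. Over all tested genes these shares were 14.4% and 13.6%. At an unadjusted p below 0.05, 8 synthetases were lower and 0 higher, where all tested genes gave 10.4% and 11.6%. DESeq2's Wald test called Gars, Kars, Lars, Qars, Rars, Tars and Wars lower and none higher, where all tested genes gave 6.04% and 7.06%. Summed over the 20 genes, the synthetases took 5893, 5532 and 5964 CPM in KO and 6014, 6554 and 6338 CPM in WT, 8.02% less by the means, without overlap.

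The differences were not uniform over the synthetases. Aars and Cars, for alanine and cysteine, had the highest log2 fold changes (0.21 and 0.24), with KO1 and KO3 above every WT library and KO2 below or among them. Aars was at 422, 316 and 407 CPM in KO and 298, 352 and 341 CPM in WT, and Cars at 158, 92.1 and 149 CPM against 101, 127 and 110 CPM. Hars, for histidine, was likewise lowest in KO2, at 205 CPM against 295 and 313 CPM in KO1 and KO3. Farsa and Farsb, for the subunits of the phenylalanine enzyme, overlapped between groups, at 207 to 243 and 247 to 273 CPM in KO and 215 to 241 and 271 to 321 CPM in WT. With the erythroid covariate the log2 fold changes of Aars and Cars turned to −0.07 and −0.24. Vars, for valine, was the synthetase with the most counts, at 734, 712 and 813 CPM in KO and 699, 765 and 772 CPM in WT. Scaled by exon length, Gars and Vars had the highest levels of the 36 genes in WT, at 153 and 133 CPM per kb, while Qars and Cars, at 19.9 and 17.1 CPM per kb, were the lowest of the synthetases.

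**Figure D4:**
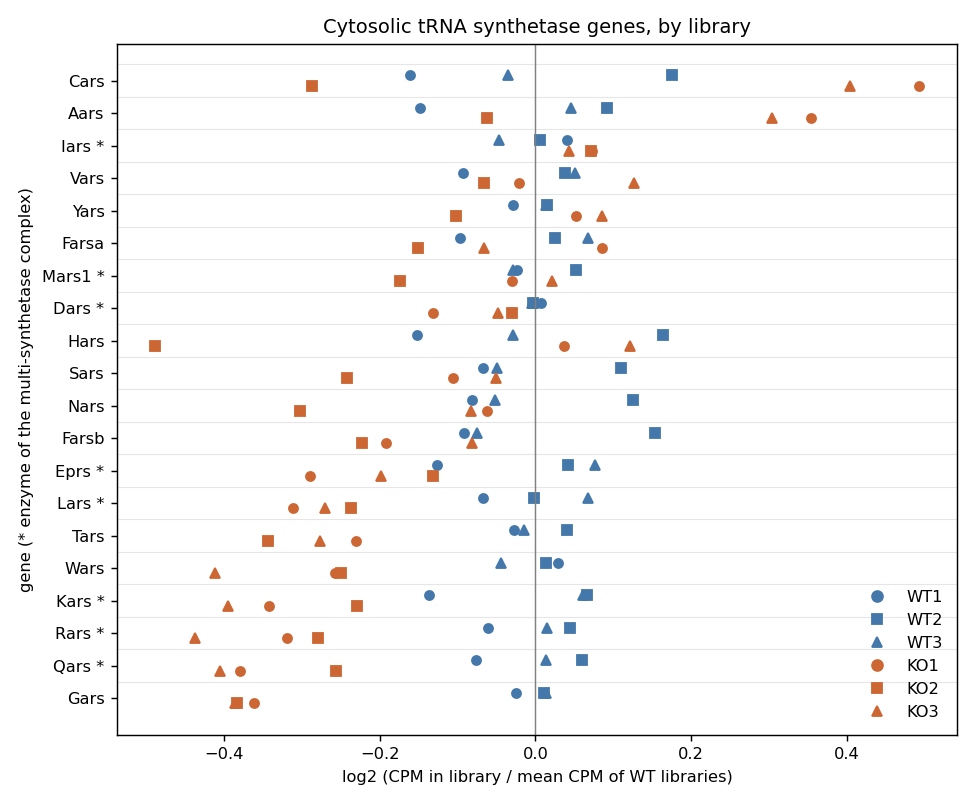
Level of each cytosolic tRNA synthetase gene in each library as log2 of its CPM over the mean of the WT libraries, with genes ordered by fitted log2 fold change and enzymes of the multi-synthetase complex starred. The KO libraries (orange) lie left of all WT libraries (blue) in 9 genes, Gars among them, and right of them in Iars, while KO2 departs from KO1 and KO3 in Cars, Aars and Hars.

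Several synthetases work in a stable multi-synthetase complex, and 8 of the genes encode its enzymes. In 6 of the 8 (Dars, Eprs, Kars, Lars, Qars, Rars) all KO libraries lay below all WT libraries, in Iars they lay above, and Mars1 overlapped. Over all tested genes, 14.4% lay below and 13.6% above without overlap. The median log2 fold change of the 8 was −0.24, and 0 passed edgeR's test. At an unadjusted p below 0.05, 5 of the 8 were lower, against 10.4% of all tested genes. DESeq2 called 4 of the 8 lower, against 6.04% of all tested genes. Their summed level was 2099, 2190 and 2131 CPM in KO and 2309, 2450 and 2438 CPM in WT. Of the complex's scaffold genes and the tRNA exporter Xpot, 0 of 4 passed edgeR's test, 0 were past an unadjusted p of 0.05, and DESeq2 and limma-voom called 0. All 4 log2 fold changes were negative (−0.27 to −0.13), and the smallest p was that of Aimp1, at 60.9, 62.1 and 65.4 CPM in KO against 67.6, 87.1 and 70.7 CPM in WT (edgeR adjusted p = 0.251).

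The 12 synthetase genes that are often listed as ATF4 targets (Aars, Cars, Eprs, Gars, Iars, Lars, Mars1, Nars, Sars, Tars, Wars and Yars) had a median log2 fold change of −0.14, the same as all 20 at this rounding. In 5 of these 12 (41.7%) all KO libraries lay below all WT libraries and in 1 (8.33%) above, against 14.4% and 13.6% of all tested genes. The 17 mitochondrial synthetases listed with nuclear genes of their own were counted in the same way. That list holds no gene for glycine or lysine, so Gars and Kars have no counterpart in it. Of the 17 log2 fold changes 13 were negative, with a median of −0.20. In 5 genes (Iars2, Mars2, Nars2, Rars2 and Tars2) all KO libraries lay below all WT libraries. These 5 are 29.4% of the list, against 14.4% of all tested genes. Of the 17, 0 passed edgeR's test, and 5 were lower at an unadjusted p below 0.05 (29.4%, against 10.4%). DESeq2 called 1 lower (5.88%, against 6.04%) and limma-voom called 0. The smallest p was that of Rars2, at 79.5, 93.2 and 87.6 CPM in KO against 104, 108 and 107 CPM in WT (log2 fold change −0.29 ± 0.09, SE, edgeR adjusted p = 0.115).

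Of 30 other ATF4 target genes 28 were tested, and 1 rose and 1 fell (3.57% lower, where all tested genes gave 1.64% higher and 1.92% lower). Pck2, the mitochondrial form of phosphoenolpyruvate carboxykinase, was 49.9% higher in KO, rising from 111, 121 and 110 CPM in the WT libraries to 187, 145 and 181 CPM in the KO libraries (log2 fold change 0.58 ± 0.11, SE, edgeR adjusted p = 0.0430). That call held without KO2 (edgeR adjusted p = 0.0277) and was lost without KO1, KO3, WT1, WT2 or WT3 (0.0889 to 0.177), and with the erythroid covariate (0.167, log2 fold change 0.38), and limma-voom gave an adjusted p of 0.0506. Cebpb, which encodes a C/EBP factor that can pair with ATF4 and is also a myeloid regulator, fell from 77.3, 67.7 and 54.6 CPM to 19.7, 11.8 and 18.1 CPM (−2.01 ± 0.23, edgeR adjusted p = 0.0125). It passed in all 6 fits that left out a library. Markers of neutrophils, which also express Cebpb, summed to 215, 16.9 and 80.4 CPM in KO and 824, 158 and 118 CPM in WT, with overlapping groups. Of these 10 markers 7 had negative and 3 positive log2 fold changes, and 0 passed edgeR's test. In 3 of them (30.0%: Ngp, Camp and Ltf) all KO libraries lay below all WT libraries, and in 0 above. Over all tested genes these shares were 14.4% and 13.6%. The part of the neutrophil markers in the Cebpb level was not tested.

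The other 26 targets did not pass, and their directions were mixed. The median log2 fold change of the 28 was −0.12, with 11 positive and 17 negative. The KO libraries lay below all WT libraries in 3 genes and above them in 3 (10.7% each). Over all tested genes these shares were 14.4% and 13.6%. The serine synthesis genes Phgdh, Psat1 and Psph and the mitochondrial serine enzyme Shmt2 had log2 fold changes of −0.22, −0.30, −0.20 and −0.15. The partner of Shmt2, Mthfd2, and the mTORC1 inhibitor Sesn2 had log2 fold changes of 0.31 and 0.39, with KO2 again below KO1 and KO3 for both. The amino acid transporter genes differed in direction. Slc7a5, Slc7a1 and Slc1a4 had values of 0.03, 0.07 and −0.04, and Slc7a11, low in all libraries, had 0.66 with overlapping groups. Slc1a5 and Slc3a2 (−0.21 and −0.18) were lower in every KO library than in every WT library, and Slc38a2 (0.27) was higher. Fgf21 had no count in any library. Of 6 genes that act on the kinases, 0 passed edgeR's test, and DESeq2 and limma-voom called 0. At an unadjusted p below 0.05, 2 were lower (33.3%, against 10.4% of all tested genes). In the same 2, Impact and Dnajc3, all KO libraries lay below all WT libraries, against 14.4% of all tested genes. The smallest p there was that of Dnajc3, an inhibitor of PKR and PERK, at 138, 136 and 135 CPM in KO against 182, 142 and 170 CPM in WT (edgeR adjusted p = 0.183).

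**Figure D5:**
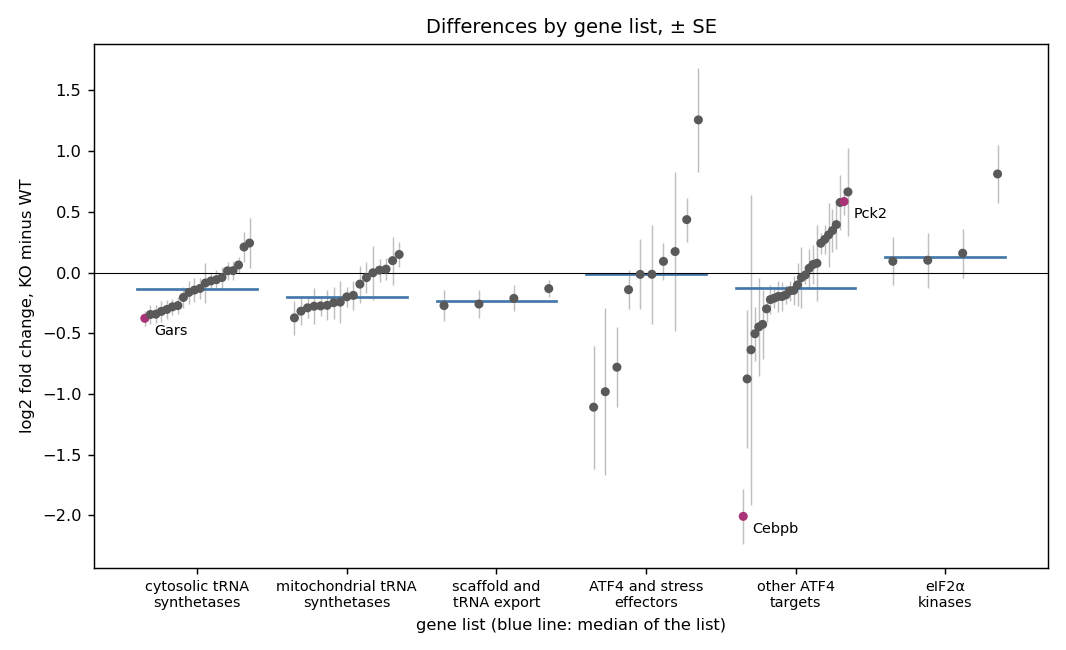
Fitted log2 fold change (KO minus WT, ± SE) of each tested gene of the 3 member lists, the mitochondrial synthetases, the scaffold and export genes and the other ATF4 targets, with the median of each list as a blue line and genes at an edgeR adjusted p below 0.05 in purple. Points of the synthetase lists lie close together and mostly below 0, those of the effectors spread from −1.11 to 1.26, and only Gars, Cebpb and Pck2 are past the threshold among the lists shown.

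Some libraries ranked low or high within their group over many of these genes. Among the 14 tested effectors and kinases KO2 was the lowest KO library in 9, and WT2 was the highest WT library in 9. Among the 20 synthetases WT1 was the lowest WT library in 16 and WT2 the highest in 12. Markers of other blood cells varied between libraries too: 9 B and plasma cell markers summed to 63.6 to 168 CPM in KO and 5.47 to 43.3 CPM in WT, 11 T and NK cell markers to 20.3 to 44.9 against 14.5 to 21.4 CPM, and 12 macrophage and dendritic cell markers to 104 to 180 against 30.3 to 48.8 CPM. The summed ranges overlapped for the T and NK cell markers, of which Lck (10.7 to 18.4 CPM) was the largest part in WT, and not for the other 2 lists. Gene by gene, 5 of 10 tested T and NK cell markers, 3 of 8 B and plasma cell markers and 5 of 12 macrophage and dendritic cell markers rose in edgeR's test and none fell. Of the tested markers of these lists, 8, 6 and 9 were higher in every KO library than in every WT library. The dendritic cell marker Flt3 was lower in every KO library (log2 fold change −1.63). Lck, Klrb1c, Adgre1 and Cd68 also had negative log2 fold changes, with overlapping groups. Over all tested genes 1.64% rose, and 13.6% were higher and 14.4% lower without overlap. Cd4 had no count in WT, and Cd3e had none in WT2 or WT3. These lists took far less RNA than the synthetases or the erythroid markers, and their part in the differences above was not tested.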

How the data were processed

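The authors deposited raw counts of reads per gene, 1 column per library and no unused sample column. STAR 2.7.9a, featureCounts from Subread 2.0.1 and fastp 0.23.1 are named in the submitters' processing notes. Their settings, the genome build and the treatment of shared reads were not given in the sources used here. Per the labels' protocols, RNA was pre-amplified with SMARTer chemistry, which marks neither strand nor molecules, so amplified copies count as reads and limits cover counting error only.

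Genes were filtered with edgeR's filterByExpr (minimum count 10, minimum total 15), scaled by TMM and compared between KO and WT with the quasi-likelihood F test (edgeR 4.0.16, R 4.3.3), with Benjamini-Hochberg adjustment over 15232 genes and a threshold of 0.05. The standard error is the log2 fold change over the root of F. CPM use TMM-scaled library sizes. Exon lengths are unions of GENCODE M21 exons, matched by symbol. At these depths 3 counts are 0.0594 to 0.0727 CPM. No libraries agreed within sampling noise (chi-square per degree of freedom 32.8 to 113 within groups). The biological coefficient of variation was 0.323. On simulated counts for 15232 genes edgeR recovered 7.46%, 58.2% and 81.8% of genes changed 1.5-fold, 2-fold and 4-fold, with 8 false calls.

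Members, lists and alternatives were chosen with earlier results of these data known. Named are Slc6a6, all 36 members, and of each further list the genes past the test or, if none, the one with the smallest p; other targets, markers and the non-overlapping genes were named after their values were seen. Alternatives used DESeq2 1.42.0, limma-voom (limma 3.58.1), other scalings and filters, a replicate block, an erythroid covariate and each library left out. The promoter match of 1 member is not reported here.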

Additional observations from a re-analysis of the deposited data

How the results depend on the processing

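Every one of the 15 alternatives was run. With all libraries 250 genes were higher and 293 lower in KO, with 0 members higher and 1 lower. DESeq2's Wald test gave 1075 and 920 genes and 1 and 7 members. The erythroid covariate gave 120 and 81 genes and 1 lower member, which was Asns and not Gars. With 1 library left out the counts ran from 13 to 371 genes higher, from 29 to 247 lower, from 0 to 2 members higher (2 without KO2, Eif2ak1 and Ppp1r15b) and from 0 to 1 lower. Other scalings, limma-voom and other filters stayed within 1.5 times. With the replicate number as a block, 8 genes were higher and 20 lower and 0 members were called. Gars, Eif2s3x, Cebpb and Pck2 then had edgeR adjusted p-values of 0.103, 0.0986, 0.0611 and 0.142, with log2 fold changes of −0.38, −0.75, −2.03 and 0.58. The replicate numbers do not pair the libraries: same-numbered libraries had correlations of 0.06, −0.14 and −0.07 in their deviations from the group means.

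Of the 34 tested members, 13 changed sign in some alternative, none of them past the test. With the erythroid covariate the log2 fold change was −0.24 for Atf4, −0.023 for Atf5, −0.023 for Eif2ak2, −0.069 for Aars, −0.24 for Cars, −0.098 for Vars and −0.084 for Yars. With library totals only, Vars and Yars were at −0.0021 and −0.0040, and with upper quartile scaling at −0.0032 and −0.0048. On leaving out a library the ranges were −0.033 to 0.23 (Atf4), −0.27 to 0.59 (Atf5), −0.18 to 0.21 (Ddit3), −0.52 to 0.29 (Cth), −0.11 to 0.29 (Eif2ak2), −0.079 to 0.26 (Eif2ak3), −0.11 to 0.20 (Eif2ak4), −0.11 to 0.0023 (Farsa), −0.21 to 0.069 (Hars), −0.051 to 0.045 (Vars) and −0.030 to 0.060 (Yars). The median of the cytosolic synthetases stayed between −0.26 and −0.08. The causes were not tested. Depth limits Atf5, Stc2 and Vldlr, each under 1 CPM.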
